A study of Mus musculus with 8 samples.

Results

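The histone genes on the array were taken as all named genes whose symbol marks them as H1, H2A, H2B, H3 or H4 genes, which gave 50 genes read by 63 probes among 18217 named genes. They were split by name into 29 replication-dependent genes, 8 replacement genes and 13 genes known mainly from germ cells. Of the 50, 37 passed the filter on dim probes and were tested: 24 replication-dependent, 8 replacement and 5 germ-line genes. None of the 37 had passed through detection in 1 group alone.

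Kidney RNA of 8 mice aged 8 weeks was measured on 1-colour (Cy3) Agilent mouse arrays, 1 mouse per array. The 4 NEKO mice were Keap1-/-::Nrf2Flox/Flox::K5-Cre, and the 4 littermate controls were Keap1+/-::Nrf2Flox/Flox, with K5-Cre in 3 (K1Cre) and without it in 1 female (K1). All 8 mice therefore carried floxed Nrf2 alleles, which K5-Cre, driven by the Keratin5 promoter, removes in squamous epithelium. All were of mixed 129Sv/J and C57BL/6J background. Each group held 2 females and 2 males, with all females on 1 slide and all males on the other, so that sex and slide cannot be told apart.

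Keap1, which codes for the adaptor that directs the transcription factor NRF2 to degradation, was read first as a check of the labels. Every level here is a log2 processed signal less the array's 75th percentile, and values are listed as control replicates 1, 4, 7 and 8 and NEKO replicates 2, 3, 5 and 6, of which 1, 8, 2 and 3 are females. The Keap1 level was 1.80, 1.92, 1.87 and 1.77 in controls and 0.45, 0.06, 0.14 and 0.16 in NEKO mice (adjusted p of 0.0046 in limma). Between 61.7% and 65.7% of all probes were well above background on each array, and no non-control spot was saturated. Among markers of other cells in the kidney, the neutrophil genes S100a8 and S100a9 had fitted log2 differences (NEKO minus control) of 1.81 and 1.64 and the erythroid gene Alas2 1.52, none with an adjusted p under 0.05. S100a8 was well above background in 1 control and 3 NEKO mice, so that its difference is set mostly against undetected spots. In females and males the differences were 0.60 and 3.01 for S100a8, 0.46 and 2.81 for S100a9, and 1.47 and 1.57 for Alas2. All 5 proximal tubule markers, Cubn, Lrp2, Slc34a1, Slc5a12 and Slc5a2, were detected on every array, and their summed linear level ranged from 373 to 435 in controls and from 395 to 430 in NEKO mice. Within this list Slc5a2 lay lower in every NEKO mouse than in any control (-0.43 ± 0.10, adjusted p of 0.120). The distal convoluted tubule marker Slc12a3 had -0.57 (adjusted p of 0.203 in limma). The thick ascending limb markers Umod and Slc12a1 had -0.27 and -0.20 (adjusted p of 0.297 and 0.501 in limma). All 3 had overlapping groups. In this order their differences were -0.24, -0.07 and 0.03 in females and -0.91, -0.47 and -0.44 in males. The summed level of the 6 tested macrophage markers ranged from 4.80 to 6.20 and from 4.18 to 7.46, and that of S100a8 and S100a9, the 2 tested of 3 neutrophil markers, from 0.167 to 0.485 and from 0.306 to 6.58. The part of these cells in the histone differences was not tested.

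Replication-dependent histone genes mostly lie in clusters, mostly have no introns, and are transcribed mainly while DNA is copied. Their messages usually end in a stem-loop in place of a poly(A) tail, bound by the stem-loop binding protein Slbp. Replacement histones such as H3.3, H2A.Z and H1.0 come from genes with ordinary polyadenylated messages and are made throughout the cell cycle, also in resting cells. The RNA was labelled with the Quick Amp kit, which starts from an oligo-dT primer, so that the array reads mainly polyadenylated messages. What share of each replication-dependent message was labelled was not measured, and a difference in polyadenylated message and one in total message cannot be told apart. In whole kidney RNA, fewer cells expressing a gene and less RNA per cell cannot be told apart either.

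Detection was taken from the scanner's flag for a spot well above background. Of the 29 replication-dependent genes, 24, 24, 25 and 24 were detected in control replicates 1, 4, 7 and 8, and 21, 24, 23 and 23 in NEKO replicates 2, 3, 5 and 6. The 24 tested genes were H1f3, detected in 4 controls and 2 NEKO mice, H1f1, H1f5 and H2ac4, detected in 4 controls and 3 NEKO mice each, and 20 genes seen on all 8 arrays. H2ac6, H2ac8, H2bc6 and H2bc23 were not well above background on any array, and H3c1 was on 1 control array. The 8 replacement genes were all detected on every array except H1f10, which was missed in NEKO replicate 6. Between 4 and 6 of the 13 germ-line genes were detected per array: H1f8, H2ac1, H2al2a and H2bc1 on all 8, H2ap on 4, and H1f6, H1f7 and H2bfm on 1 array each. H2ab1, H2al1m, H2al1n, H2al1o and H2bl1 were detected on none.

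All 24 tested replication-dependent genes had a fitted difference below 0, whereas 43.8% of the 19593 features tested had one above 0. Their median log2 difference was -0.45, with a range from -3.90 to -0.12, against a median of -0.03 over all features. Since several of these genes share most of their sequence, the 24 are not independent readings. After adjustment over all features, 1 of the 24 was called lower, H1f3, and none was called higher. Over all features, 0.225% were called in either direction, 0.128% as lower and 0.097% as higher in NEKO mice. At an unadjusted p under 0.05, 12 of the 24 were lower, against 10.6% of all features. In 9 of the 24 every NEKO mouse lay below every control mouse, against 5.39% of all features, and in none did every NEKO mouse lie above, against 3.89%. The 8 replacement genes had a median of -0.15, and none was called, while 3 were lower at an unadjusted p under 0.05. In the same 3 of the 8 every NEKO mouse lay below every control, so that groups apart were not particular to the replication-dependent genes. The 5 germ-line genes had a median of -0.22, with none called and none at an unadjusted p under 0.05.

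**Figure D1:**
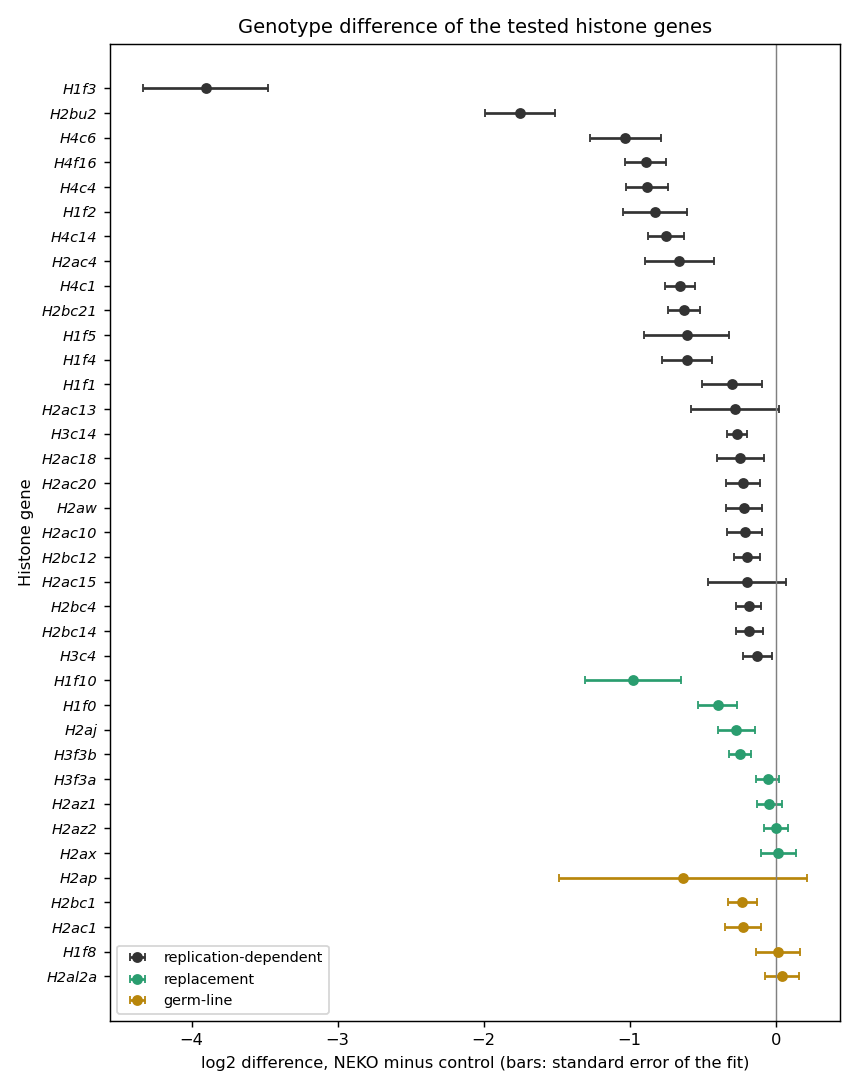
Fitted log2 difference (NEKO minus control, x axis) for each of the 37 tested histone genes (y axis), with the standard error of the limma fit as bars, in black for replication-dependent, green for replacement and gold for germ-line genes. All 24 black points lie left of 0, from -3.90 for H1f3 to -0.12 for H3c4, while the replacement genes H2ax, H2az1, H2az2 and H3f3a lie close to 0.

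The median of the 24 genes was also taken on each array, after each gene was set to its own mean over the 8 arrays. It lay between 0.13 and 0.44 in the control mice and between -0.29 and -0.12 in the NEKO mice, so that the groups did not overlap on this summary. For the replacement genes it lay between -0.05 and 0.19 in control mice and between -0.11 and -0.06 in NEKO mice, with the lowest control next to the highest NEKO mouse.

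Upstream sequences are shown for 5 genes. They are H1f3, the called gene, and H2bu2, with the next largest difference. The others are a pair of H4 genes from different loci and the replacement gene H3f3b. In all of these genes every NEKO mouse lay below every control. Each sequence is the 250 bases before the start of the gene in RefSeq (GRCm38.p6), read 5′ to 3′ on the strand of the gene. The array's own annotation is on another build, mm9, so the positions are those of the RefSeq table. Capitals mark matches on either strand. The motifs searched were the CCAAT box, the TATA box written as TATAAA, the octamer ATTTGCAT known from H2B promoters, the motif AAACACA known from H1 promoters, and the run AGGTCCG, which was searched for after these windows had been seen. No searched motif overlaps another here. H1f3 lies at chr13:23554782-23555031, plus strand, and H2bu2 at chr11:58948661-58948910, plus strand. H4c4 lies at chr13:23581318-23581567, plus strand and H4f16 at chr6:136804432-136804681, minus strand. H3f3b lies at chr11:116024505-116024754, minus strand.
H1f3: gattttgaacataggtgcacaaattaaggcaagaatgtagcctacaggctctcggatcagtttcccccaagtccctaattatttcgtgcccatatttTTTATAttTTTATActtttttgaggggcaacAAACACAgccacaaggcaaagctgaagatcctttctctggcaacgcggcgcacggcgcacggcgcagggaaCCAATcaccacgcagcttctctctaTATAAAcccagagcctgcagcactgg
H2bu2: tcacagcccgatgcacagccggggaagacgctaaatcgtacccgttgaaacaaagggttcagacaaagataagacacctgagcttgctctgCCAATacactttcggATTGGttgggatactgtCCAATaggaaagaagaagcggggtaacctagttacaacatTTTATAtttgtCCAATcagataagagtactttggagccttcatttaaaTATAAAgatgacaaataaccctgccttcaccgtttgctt
H4c4: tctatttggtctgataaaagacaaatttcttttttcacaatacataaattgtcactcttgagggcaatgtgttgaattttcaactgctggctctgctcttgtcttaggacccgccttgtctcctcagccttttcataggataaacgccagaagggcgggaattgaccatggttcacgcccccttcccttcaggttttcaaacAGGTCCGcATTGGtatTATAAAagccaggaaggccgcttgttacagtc
H4f16: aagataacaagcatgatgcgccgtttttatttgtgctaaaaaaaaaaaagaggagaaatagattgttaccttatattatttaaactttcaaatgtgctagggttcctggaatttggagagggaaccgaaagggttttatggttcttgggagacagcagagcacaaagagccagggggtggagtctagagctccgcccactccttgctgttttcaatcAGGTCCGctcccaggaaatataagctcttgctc
H3f3b: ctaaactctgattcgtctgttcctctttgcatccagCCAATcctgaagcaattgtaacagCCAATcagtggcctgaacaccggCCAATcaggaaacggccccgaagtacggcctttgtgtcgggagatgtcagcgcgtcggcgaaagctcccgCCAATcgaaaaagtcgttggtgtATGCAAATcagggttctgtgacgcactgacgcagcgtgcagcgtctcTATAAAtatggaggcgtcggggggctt

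RefSeq start sites were matched for 45 of the 50 genes. Some genes have more than 1 start. CCAAT was found in 23 of 26 windows of 25 replication-dependent genes (88.5%), in 5 of 7 windows of replacement genes (71.4%) and in 33.8% of all 32851 windows of this length. TATAAA was found in 13 of the 26 (50%), 1 of the 7 (14.3%) and 12.4% of all windows. That replacement window is the one of H3f3b shown above. The octamer was in 8 of the 26 (30.8%), 1 of the 7 (14.3%), again H3f3b, and 1.6% of all windows. AAACACA was in 6 of the 26 (23.1%), 1 of the 7 (14.3%) and 6.25% of all windows. AGGTCCG stood in 3 of the 4 H4 windows, which cover 4 of the 5 H4 genes. It stood in none of the 22 windows of the other replication-dependent genes and in 1.62% of all windows. The run was picked after the H4c4 and H4f16 windows had been seen, and both count among the 3, so the contrast is partly set by that choice. The H4f16 window holds none of the other motifs. These matches describe the letters only.

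The core histone H4 wraps DNA together with H2A, H2B and H3, and its genes code for the same or nearly the same protein from separate loci. All 5 H4 genes measured lay lower in each NEKO mouse than in any control mouse, and their median log2 difference was -0.88. H4c4 had levels of 3.22, 3.51, 3.34 and 3.07 in controls and 2.65, 2.35, 2.47 and 2.14 in NEKO mice. The fitted difference was -0.88 ± 0.14 (SE, n = 4 per group), with an adjusted p of 0.064 in limma. Its second probe gave -0.88 ± 0.09. H4f16, the only member of the Hist4 locus here, had levels of 0.46, 0.72, 0.59 and 0.34 in controls against -0.12, -0.48, -0.25 and -0.62 in NEKO mice. The difference was -0.89 ± 0.14 with an adjusted p of 0.063.

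H4c14 of the Hist2 cluster read 2.19, 2.42, 2.35 and 2.13 in controls and 1.78, 1.47, 1.54 and 1.31 in NEKO mice. H4c1 of the Hist1 cluster was the least spread of the family among controls, at 1.52, 1.64, 1.62 and 1.52, against 1.09, 0.89, 1.00 and 0.70 in NEKO mice. H4c6 had the widest control range, 3.77, 4.70, 3.84 and 3.51, with control replicate 4 high, and read 3.13, 2.88, 3.00 and 2.70 in NEKO mice. The differences were -0.75 ± 0.12, -0.66 ± 0.10 and -1.03 ± 0.24, with adjusted p of 0.066, 0.061 and 0.127. Without control replicate 4 the H4c6 difference was -0.78 ± 0.14. None of the 5 H4 genes thus passed the adjusted threshold, although the groups were apart in each. Over the alternative settings the median of the 5 lay between -0.99 and -0.77. With a normexp background correction or with a trend and robust eBayes, 4 of them (all but H4c6) passed the adjusted threshold. These settings called more features throughout, 114 and 52 of 19593 as lower in NEKO mice against 25 in the main analysis. The levels of the 5 probes ran in parallel over the 8 mice, with pairwise Pearson r from 0.891 to 0.997. The genotype difference, which all 5 show, was left in, and all of them share the scaling of their array. Parallel levels within a genotype were not tested. H4 coding sequences are close to identical, and cross-hybridization between these probes was not tested.

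**Figure D2:**
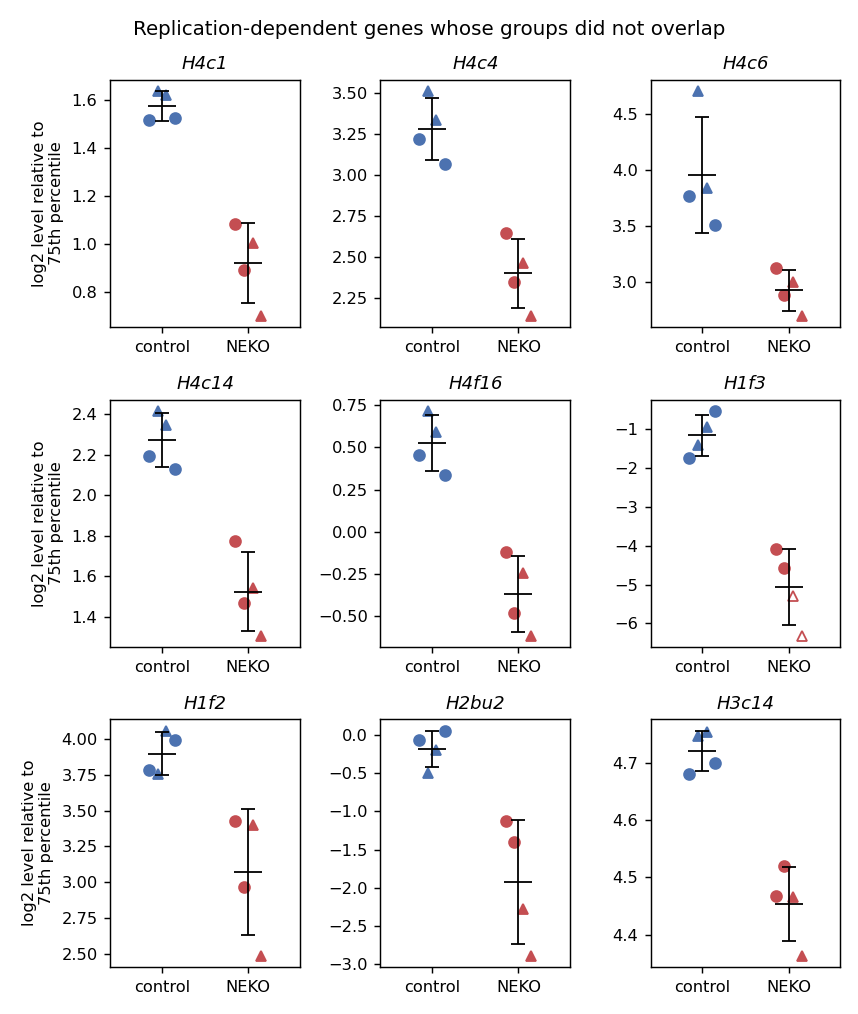
Log2 level less the array's 75th percentile (y axis, its range differing by panel) for the 9 replication-dependent genes whose groups did not overlap, in control (blue) and NEKO (red) mice. Circles are females, triangles males, open symbols are spots not well above background, and black bars give the mean ± SD of 4 mice. In the 5 H4 panels all 4 NEKO mice sit below all 4 controls, with NEKO replicate 6, a male, the lowest.

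Linker histone H1 binds the DNA between nucleosomes, and somatic cells carry several near-relatives of it. The 5 replication-dependent H1 genes had a median log2 difference of -0.61. H1f3 stood at -1.75, -1.42, -0.95 and -0.53 in control mice and at -4.08, -4.57, -5.30 and -6.32 in NEKO mice, and the last 2, both males, were not well above background. The fitted difference was -3.90 ± 0.43 (adjusted p of 0.031 in limma, lower in 4 of 4 NEKO mice). Its size depended on how dim signal was handled: it was -2.19 with a normexp background correction and -2.92 with the mean of the kept probes. The call was lost on leaving out any of NEKO replicates 3, 5 and 6 or control replicates 4, 7 and 8, with adjusted p between 0.057 and 0.116, while the difference stayed between -4.29 and -3.56 over the 8 such fits. A second H1f3 probe was well above background in all 4 controls and in no NEKO mouse. It thus met the filter through the controls alone, and its NEKO levels are undetected spots. It gives no separate support for the difference, and it enters the mean of the kept probes.

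H1f2 had levels of 3.78, 3.75, 4.06 and 3.99 in controls and 3.43, 2.97, 3.40 and 2.49 in NEKO mice, with no overlap, a difference of -0.83 ± 0.22 and an adjusted p of 0.150. H1f4 had 0.46, 0.52, 0.77 and 0.37 against -0.24, -0.39, 0.54 and -0.22. Here NEKO replicate 5 fell among the controls, the difference was -0.60 ± 0.17 and the adjusted p 0.166. H1f5 was dim throughout, at -3.76, -4.49, -4.29 and -4.22 in controls and -5.30, -5.33, -4.18 and -4.40 in NEKO mice. Its difference was -1.32 in females and 0.10 in males, with an adjusted p of 0.130 for the interaction of sex and genotype. The spot of NEKO replicate 2, a female, was not well above background, so the female value rests in part on an undetected spot. H1f1, also dim, differed by -0.30 ± 0.20. With normexp the differences of H1f5 and H1f1 were -0.15 and -0.03.

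Histone H2B pairs with H2A in the nucleosome. H2bu2, in the Hist3 locus, had the second largest difference of the 24: it stood at -0.07, -0.50, -0.20 and 0.05 in controls and at -1.13, -1.40, -2.28 and -2.89 in NEKO mice. The groups were apart by more than the range of the controls, with a difference of -1.75 ± 0.24 and an adjusted p of 0.053. H2aw, its H2A neighbour in the same locus, differed by -0.22 ± 0.12 on the probe used and by -0.45 ± 0.14 on another. H2bc21 read 1.00, 0.39, 0.52 and 0.81 in controls and 0.52, 0.14, -0.11 and -0.32 in NEKO mice. It overlapped across sexes but not within either slide, with -0.58 in females and -0.68 in males, and its adjusted p was 0.075.

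The other tested H2B genes of this class were read by bright probes and gave small differences. H2bc12 had 4.65, 4.92, 4.95 and 4.75 in controls and 4.74, 4.60, 4.57 and 4.58 in NEKO mice, a difference of -0.20 ± 0.09. H2bc4 and H2bc14 differed by -0.18 ± 0.09 each, with adjusted p of 0.314 and 0.344. All 3 overlapped between groups.

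Among the 7 tested H2A genes the median log2 difference was -0.22, and in none were the groups apart on the probe that stood for the gene. H2ac10 read 5.72, 6.24, 6.11 and 5.61 in controls and 5.67, 5.53, 6.04 and 5.61 in NEKO mice. H2ac20 read 5.69, 6.25, 6.07 and 5.58 against 5.64, 5.49, 5.95 and 5.61, almost the same series of values. The differences were -0.21 ± 0.12 and -0.22 ± 0.12. A second H2ac10 probe, detected on all 8 arrays, gave -0.93 ± 0.31, and on it every NEKO mouse (highest 0.22) lay below every control (lowest 0.25), so that the 2 probes of this gene disagreed.

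The probes of H2ac10 and H2ac20, which belong to the Hist1 and Hist2 clusters, and of the testis gene H2ac1 differed by at most 0.09 log2 units on any array once each was set to its own mean, while each ranged over up to 0.77 units. With the replacement gene H2aj and with H2aw added, the largest gap was 0.14 units. This set was chosen after the levels were seen. H2A coding sequences are near-identical, and whether these probes each read their own gene was not tested, so the single values are uncertain as to gene. H2ac4 had -3.80, -3.57, -3.48 and -3.76 in controls against -5.29, -4.57, -3.70 and -3.70 in NEKO mice, both NEKO females being low and both males lying within the control range. Its difference was -0.66 ± 0.24 with an adjusted p of 0.219, and -0.20 with normexp. The spot of NEKO replicate 2, a female, was not well above background. H2ac13, H2ac15 and H2ac18 differed by -0.28, -0.19 and -0.24. In each the female difference was above 0 (0.32, 0.33 and 0.12) and the male one below 0 (-0.87, -0.72 and -0.60). For H2ac13 and H2ac15 the female value rests largely on control replicate 1, the control without K5-Cre. It read -0.40 and 0.06, against 0.33 and 0.64 in control replicate 8.

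The H3 genes of this class were read by 2 tested probes. H3c14 was narrowly spread at 4.68, 4.75, 4.75 and 4.70 in controls and 4.47, 4.52, 4.47 and 4.36 in NEKO mice. The groups were apart although the difference was small, -0.27 ± 0.07, with an adjusted p of 0.141. H3c4 differed by -0.12 ± 0.10 and overlapped.

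By locus, the 16 tested genes of the Hist1 cluster had a median log2 difference of -0.45, the 5 of Hist2 -0.27, the 2 of Hist3 -0.98 and the only one of Hist4 -0.89. Genes of which the groups were apart came from all 4 loci, 5, 2, 1 and 1 of them. By family the medians ran from -0.88 for H4 and -0.61 for H1 to -0.22 for H2A and -0.20 for H2B and H3. The differences between loci or families were not tested.

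The replacement genes were led by linker histones. H1f0, whose product H1.0 accumulates in resting and differentiated cells, read 2.36, 2.26, 2.40 and 2.36 in controls and 2.02, 2.14, 2.11 and 1.54 in NEKO mice. The groups were apart, with a difference of -0.39 ± 0.13 and an adjusted p of 0.206, and its other probes gave -0.46 and -0.33. Without NEKO replicate 6, the lowest, the difference was -0.26 ± 0.08. H1f10 was dim, at -4.36, -4.84, -4.78 and -3.24 in controls and -5.10, -4.99, -4.93 and -6.11 in NEKO mice, with control replicate 8 high and NEKO replicate 6 low and not well above background. Its difference of -0.98 ± 0.33 (adjusted p of 0.206) was -0.38 with normexp and lay between -1.27 and -0.70 on leaving out each mouse.

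The variant H3.3 replaces H3 in transcribed chromatin and is coded by H3f3a and H3f3b for the same protein. H3f3b read 5.39, 5.37, 5.49 and 5.39 in controls and 5.22, 5.22, 5.20 and 5.02 in NEKO mice. The groups were apart and the difference was -0.24 ± 0.08, with an adjusted p of 0.191, and it was -0.11 with normexp. Its other 2 probes gave -0.16 and -0.15. H3f3a read 5.62, 5.46, 5.71 and 5.60 against 5.63, 5.52, 5.48 and 5.54, and its difference was -0.05 ± 0.08. The difference between the H3f3a and H3f3b changes was not tested.

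H2ax, whose product is phosphorylated at DNA breaks, read 1.59, 1.77, 2.07 and 1.91 in controls and 1.53, 1.80, 2.05 and 2.05 in NEKO mice, a difference of 0.02 ± 0.12. The genes for H2A.Z, a variant found at promoters, gave 4.50, 4.48, 4.72 and 4.54 against 4.46, 4.56, 4.43 and 4.62 for H2az1, and 5.62, 5.53, 5.79 and 5.47 against 5.60, 5.54, 5.68 and 5.60 for H2az2. Their differences were -0.04 ± 0.09 and 0.00 ± 0.08, the groups overlapped throughout, and the signs of H2ax, H2az1, H2az2 and H3f3a turned in some of the alternative settings. H2aj read 6.45, 7.01, 6.77 and 6.23 in controls and 6.30, 6.16, 6.64 and 6.29 in NEKO mice. It differed by -0.27 ± 0.13 on the bright probe, which ran with the H2A probes above, and by -0.05 ± 0.28 on the other.

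**Figure D3:**
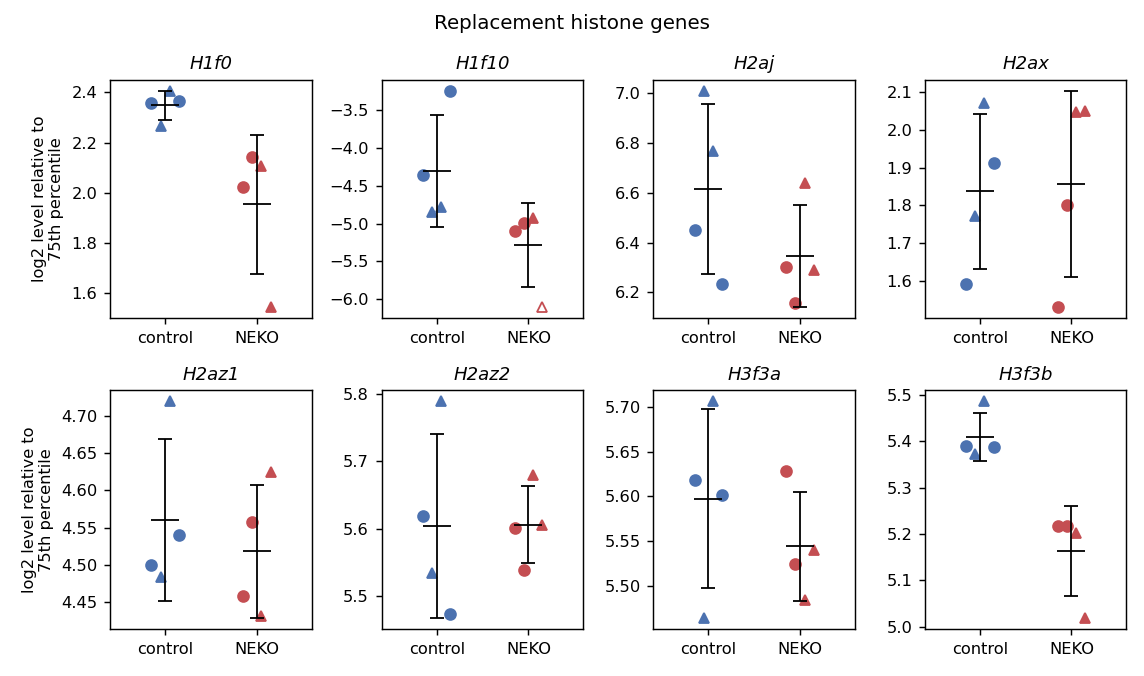
Log2 level less the array's 75th percentile (y axis, its range differing by panel) for the 8 replacement histone genes in control (blue) and NEKO (red) mice, with circles for females, triangles for males, an open symbol where the spot was not well above background and black bars for the mean ± SD of 4 mice. The groups lie apart, with NEKO lower, for H1f0, H1f10 and H3f3b, against 5.39% of all features. They overlap for the other 5 genes.

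Of the germ-line genes, H2ac1 and H2bc1, known as the testis forms of H2A and H2B, differed by -0.22 ± 0.12 and -0.23 ± 0.10. H2ac1 read 5.75, 6.33, 6.18 and 5.69 in controls and 5.69, 5.56, 6.13 and 5.67 in NEKO mice. H2bc1 read 3.51, 3.78, 3.80 and 3.58 in controls and 3.60, 3.42, 3.37 and 3.38 in NEKO mice. The groups overlapped for both genes. Once each probe was set to its own mean, those of H2bc1, H2bc4, H2bc12 and H2bc14 differed by at most 0.18 log2 units on any array. Each ranged over up to 0.47 units, and this set was chosen after the levels were seen. H1f8, the oocyte H1, read -3.07, -2.95, -3.46 and -3.36 against -3.02, -3.45, -3.12 and -3.20, a difference of 0.02 ± 0.15. H2al2a read -4.19, -4.26, -4.08 and -4.31 in NEKO mice, all within the control range, whose lowest value was -4.53, and its difference was 0.05 ± 0.12. H2ap was detected in 3 controls and 1 NEKO mouse, ranged from -5.72 to -4.43 in controls and from -7.33 to -3.14 in NEKO mice, and differed by -0.63 ± 0.85.

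Within the females 21 of the 24 replication-dependent genes had a difference below 0, and within the males 23. The male difference was the lower of both in 21 of the 24, with medians of -0.54 in males and -0.36 in females, whereas over all features 50.2% had the higher difference in males. No interaction of sex and genotype was called for a histone gene, against 0.0153% of all features, and 7 of the 24 had an unadjusted interaction p under 0.05, against 10.5% of all features. All 5 H4 genes had differences below 0 in both sexes, with medians of -0.63 in females and -1.08 in males. H1f3 differed by -3.18 in females, and since neither NEKO male was well above background its male difference was not compared with that value. H2bu2 differed by -1.26 and -2.24, with an adjusted interaction p of 0.346.

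**Figure D4:**
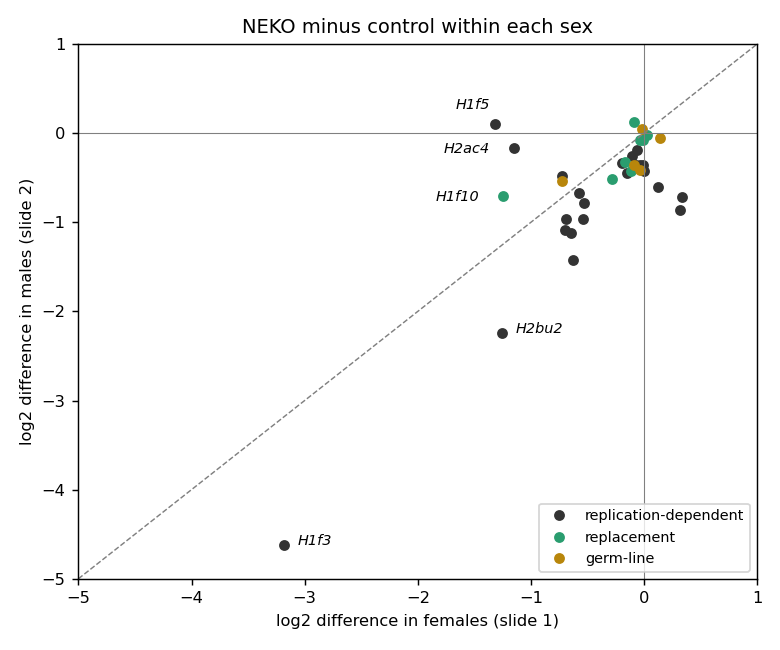
Log2 difference (NEKO minus control) in females on slide 1 (x axis) against that in males on slide 2 (y axis) for the 37 tested histone genes, 2 mice per genotype and sex, with the dashed line where both are equal. Most replication-dependent genes (black) lie below the dashed line, and H1f4, H1f5 and H2ac4 lie above it. The male value of H1f3 rests on NEKO spots not well above background, and the female values of H1f5 and H2ac4 do so in part.

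Genes that act on histones were read from lists. Of 17 genes for histone message transcription and 3′ end formation, 14 were tested, with a median log2 difference of -0.03, none called and none at an unadjusted p under 0.05. Slbp was 1.69 ± 0.10 in controls and 1.56 ± 0.06 in NEKO mice (SD, n = 4), and Npat, the coactivator of replication-dependent histone genes, was -0.64 ± 0.08 and -0.90 ± 0.27, with adjusted p of 0.439 and 0.367. Of 23 tested histone chaperone and exchange genes, none was called, and the median was 0.00. At an unadjusted p under 0.05, 3 were higher, against 7.39% of all features: Rbbp7 (0.34), Ino80 (0.32) and Set (0.24). Chaf1b, a subunit of the chaperone CAF-1 that loads new H3 and H4 on copied DNA, had -0.37 with an adjusted p of 0.189.

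DNA replication and proliferation genes numbered 28 tested, with a median of -0.14 and none called. At an unadjusted p under 0.05, 6 were lower, against 10.6% of all features, and 1 higher, against 7.39%. Prim1, the primase subunit, read 0.81, 1.08, 1.11 and 1.07 in controls and 0.60, 0.60, 0.36 and 0.16 in NEKO mice, a difference of -0.59 ± 0.13 with an adjusted p of 0.110. The groups were also apart for Cdt1 (-0.36) and the polymerase genes Pole (-0.46) and Pola1 (-0.27), against 5.39% of all features, and, upward, for Tyms (0.44), against 3.89%. Mcm5 (-0.51) and Bub1 (-0.44) overlapped, and the proliferation marker Mki67 differed by -0.04 ± 0.19. The histone variants whose symbols fall outside the rule, Macroh2a1, Macroh2a2 and Cenpa, differed by -0.06, -0.02 and -0.02.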

How the data were processed

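Kidney RNA of 8 mice was read on 8 arrays. The authors deposited Agilent Feature Extraction 10.7.3.1 output, in which the processed signal is a background-subtracted intensity, and a matrix of log2 values centred on each probe's median, of which 99.9% lay within 0.01 of the recomputed ones. Outlier spots were left out, spots of 1 probe averaged, and the 75th percentile subtracted from each log2 processed signal. A probe was kept if detected above background on 4 or more arrays and measured on 6 or more, and the kept probe with the highest mean stood for its gene. Names came from RefSeq (GRCm38.p6) through accessions, for 26690 of 41174 probes. Differences were fitted in limma 3.58.1 (R 4.3.3, lmFit and eBayes) with genotype and sex, adjusted by Benjamini-Hochberg over all 19593 features, and the procedure was tested on simulated data. The labels give no litters, and p-values measure the spread between these mice. Precision is limited by the small number of arrays.

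The members and lists were chosen with earlier results of these data known. Genes given with values are called genes, tested replacement and germ-line genes, the 8 replication-dependent genes with the largest differences among those with groups apart or an unadjusted p under 0.05, the 5 with the highest mean, members of the lists with an unadjusted p under 0.05, and Keap1; others are given to account for every member. Alternatives covered background correction, scaling, the filter, probe choice, the model, the methods' t-test, the authors' matrix and leaving out each mouse. No mean spot signal was used, so normexp (offset 50) ran on median signals.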

Additional observations from a re-analysis of the deposited data

Results flagged for a closer look

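In 74 groups of 4 mice (37 tested histone genes in each genotype), 5 held a mouse whose gap to its nearest neighbour, as a share of the range of the group, passed Dixon's critical value for groups of that size, and chance gives about 1 in 20. NEKO replicate 6 stood low for H3f3b, at 5.02 against 5.20 to 5.22 in the other NEKO mice (share 0.918), and for H1f10, at -6.11 against -5.10 to -4.93 (share 0.857). Control replicate 7 stood high for H3f3b, at 5.49 against 5.37 to 5.39 (share 0.857). NEKO replicate 5 stood low for H2ac15, at 0.01 against 0.63 to 0.72 (share 0.875), and without it the H2ac15 difference was 0.04 in place of -0.19. NEKO replicate 2 stood high for H2bc12, at 4.74 against 4.57 to 4.60 (share 0.850).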

How the results depend on the processing

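The number of histone genes called, all of them lower, was 1 in the main analysis, 7 with normexp, 6 with a trend and robust eBayes, 3 with the slide as a random block, 2 with the mean of the kept probes, 12 with the methods' t-test before adjustment and 0 after it, 0 with no filter and 0 with detection required on all 8 arrays, where H1f3 is not tested. Of all 19593 features, 25 were called lower in the main analysis, 114 with normexp and 52 with a trend and robust eBayes. With the slide as a random block there were 33 and with the mean of the kept probes 26. The methods' t-test gave 1268 before adjustment and 1 after it. With no filter 21 of 32300 features were called lower, and with detection on all 8 arrays 12 of 17828. Beside H1f3, the genes called with normexp were H2bc21, H2bu2, H4c1, H4c4, H4c14 and H4f16. Leaving out each mouse gave 0 to 1, against 8 to 25 of all features. At an unadjusted p under 0.05, between 10 and 15 replication-dependent genes were lower in each of these settings, against 6.47% to 10.8% of all features. With no filter H1f3 had an adjusted p of 0.050, and after adjustment of the methods' t-test 0.268. The median of the replication-dependent genes was -0.28 with normexp and -0.27 with detection on all 8 arrays, and -0.52 to -0.38 on leaving out each mouse. All tested replication-dependent genes lay below 0 in every setting except without NEKO replicate 5 (23 of 24) and with no filter (28 of 29). Keap1 kept -1.63 but lost its call with the methods' t-test after adjustment (adjusted p of 0.141). Before adjustment 9 of the 68 tested genes of the lists, cell markers left out, passed that test, 5 higher and 4 lower. Of all 19593 features it gave 944 higher and 1268 lower. H2ap was 0.042, H2az1 0.0011 and H2az2 -0.034 with normexp, and H3f3a 0.0058 with quantile normalization. On leaving out each mouse, the differences ranged from -0.093 to 0.112 for H1f8, from -0.416 to 0.044 for H2ac15, from -0.036 to 0.122 for H2al2a, from -1.45 to 0.226 for H2ap, from -0.061 to 0.106 for H2ax, from -0.084 to 0.011 for H2az1 and from -0.045 to 0.057 for H2az2. The causes were not tested. No paired analysis was possible because the labels give no litters. Near-identical coding sequences and dim signals of H1f3, H1f5, H1f10 and H2ac4 in NEKO mice limit the values of single genes.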
